A study of Mus musculus with 9 samples.

Results

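The wound and stress keratins Krt6a, Krt6b, Krt16 and Krt17 were examined by taking the rows with these 4 gene symbols from a table of 38203 genes, and all 4 were found, each on 1 row. The table holds 50 keratin genes in all. RNA was sequenced from epidermis peeled from the trunk skin of individual E18.5 mouse embryos, that is, shortly before birth, on a mixed C57BL6/129Sv background back-crossed into C57BL6. Esrp1 and Esrp2 encode epithelial splicing regulatory proteins, which bind RNA and set exon choice in epithelial cells. The 4 genotypes were wild type (WT, 2 libraries), Esrp1 KO with wild-type Esrp2 (KO, 3 libraries), Esrp1 KO with heterozygous Esrp2 (KH, 2 libraries) and KO of both genes (DKO, 2 libraries). KO, KH and DKO embryos therefore all lacked functional Esrp1 and differed in the number of working Esrp2 alleles. Both alleles were lost in all tissues, not in the epidermis alone, and the Esrp1 allele came from 1 embryonic stem cell clone. The extract protocol in the labels describes the control embryos as Esrp1+/+, Esrp2-/-, whereas their titles and genotype labels say wild type, and Esrp2 was at 118 and 136 FPKM (fragments counted relative to transcript length and library size) in the 2 WT libraries against 0.0843 and 0.0463 in the 2 DKO libraries. Esrp2 was at 88.1, 88.4 and 131.0 FPKM in KO and at 38.6 and 89.5 in KH. KH replicate 2 thus lay inside the KO range. Its Esrp1 (55.1 FPKM) was the highest among the libraries with the Esrp1 KO allele.

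Keratins are the intermediate filament proteins of epithelial cells, and a filament needs 1 type I and 1 type II chain. In resting epidermis, basal cells use the pair Krt5 and Krt14, and cells that leave the basal layer switch to Krt1 and Krt10. After wounding, and in irritated or hyperproliferative epidermis, keratinocytes add the type II keratins Krt6a and Krt6b and the type I keratins Krt16 and Krt17. Outside injury these genes are known from hair follicles, nail, tongue and other sites under strain, and Krt17 is also made in embryonic skin.

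The 2 Krt6 genes lie side by side on the minus strand of chromosome 15, Krt6b (ENSMUSG00000023041) at chr15:101676034-101680289 and Krt6a (ENSMUSG00000058354) at chr15:101689932-101694307 of mm10. Krt16 (ENSMUSG00000053797, chr11:100246091-100248902) and Krt17 (ENSMUSG00000035557, chr11:100256217-100261029) are neighbours on the minus strand of chromosome 11. In the GENCODE annotation of GRCm38, the same assembly as mm10, the Krt6 genes have 9 exons and the type I genes 8. The coding sequences of Krt6a and Krt6b were 97.8% identical, with 37 mismatches over 1659 aligned bases. Krt5, the next nearest, was 81.5% identical to Krt6a and 81.3% to Krt6b, while Krt14 was the nearest to both Krt16 (86.5%) and Krt17 (84.1%).

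How well short reads tell the members apart bears on each value, since the libraries were read in stretches of 100 bases. Of all 100-base windows of the annotated transcript, 34.0% in Krt6a, 30.6% in Krt6b and 24.3% in Krt16 occur letter for letter in the transcript of another gene, and none of 1452 do in Krt17. With up to 3 mismatches, the number the mapping allowed in a read, 57.7% of the Krt6a windows, 60.1% of Krt6b, 19.4% of Krt16 and 7.64% of Krt17 match another keratin, which for Krt16 and Krt17 is Krt14. The identical Krt6 windows were shared between the 2 genes and with the gene models Gm5414 and Gm5478, and Krt6a also shared with Krt5. Those of Krt16 were shared with Krt14 and Gm11597. Reads from those windows can be split between the copies, so the division of reads between Krt6a and Krt6b is less certain than their sum. Gm5414 stood at 1.21 and 1.83 FPKM in DKO and at 0.00662 or less in the other 7 libraries.

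The following short stretch shows where the Krt6 genes do differ. It is the site, in exon 4 of the coding sequence, of the forward primer that the study used to measure Krt6b by real-time PCR. The Krt6b line is the primer itself, which lies at chr15:101678320-101678339 on the minus strand. The other lines give the aligned sites of Krt6a (chr15:101692501-101692520), Krt75 (chr15:101571041-101571060) and Krt5 (chr15:101710556-101710575), 5′ to 3′ along the mRNA, with the bases that differ from Krt6b in capitals.
Krt6b: tgcagacgagatcaacttcc
Krt6a: AAcagaTgaTatcaacttcT
Krt75: GAcTgacCagatcaacttcT
Krt5: GATGgacgagatcaacttcA
Each of the 3 other genes differs from Krt6b at 5 of the 20 bases. The reverse primer, tgtccaggtccaggctacg, lies in exon 5 of Krt6b (chr15:101678092-101678110), and its site is the same in Krt6a at 0 mismatches and differs at 1 base in Krt5 and Krt75.

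Krt6a, Krt6b and Krt16 were far higher in DKO epidermis than in any other genotype, and Krt17 was not. Against WT, the average rose 121-fold for Krt6b, 78.3-fold for Krt6a and 10.8-fold for Krt16, and stood at 1.37-fold for Krt17, which did not pass the test. None of the 4 was called in the embryos that lacked Esrp1 but kept 2 or 1 working Esrp2 alleles. The DKO libraries differed from each other by 4.04 times for Krt6a, 2.24 times for Krt6b and 1.97 times for Krt16, each time with DKO replicate 2 the higher.

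The test was limma on log2(FPKM + 1) of all 9 libraries, with Benjamini-Hochberg adjustment over the 16897 genes that averaged more than 0.1 FPKM in at least 1 genotype. Genes with an adjusted p below 0.05 whose average FPKM also differed by more than 2-fold are given as called. Fold changes on the log2(FPKM + 1) scale understate the change of genes near or below 1 FPKM. Nothing in the labels names litters, so the p-values measure the spread between single embryos. The study bred KO, KH and DKO embryos from different crosses, with both parents of DKO embryos lacking Esrp2. In comparisons with KH or DKO, genotype and cross therefore cannot be told apart. Of these crosses only that of KO embryos could also yield WT embryos, but the source of the WT embryos is not stated. All comparisons with WT share the same 2 WT libraries.

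**Figure D1:**
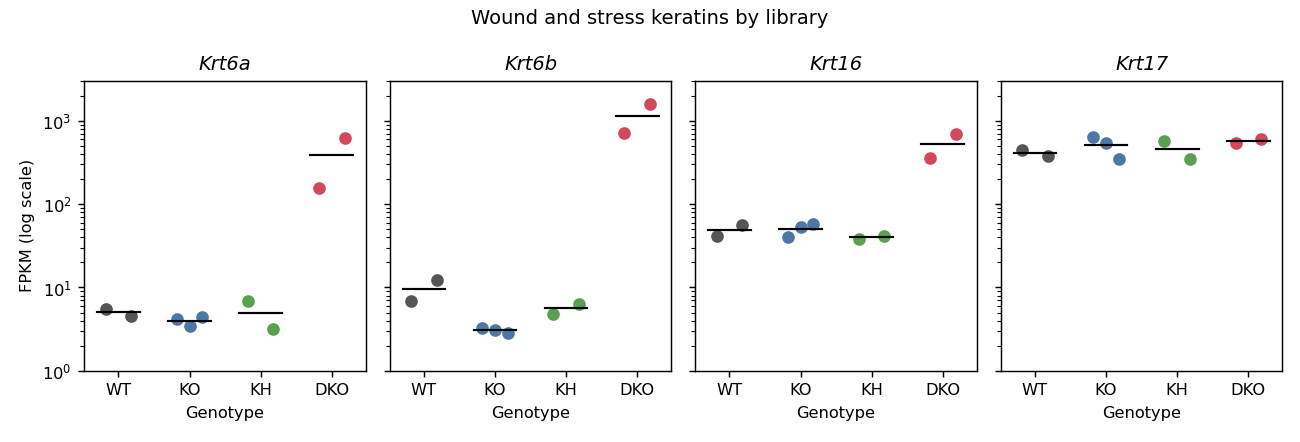
FPKM of Krt6a, Krt6b, Krt16 and Krt17 (log axis) in each library of the 4 genotypes, with points for libraries and a line for the mean of the genotype. For Krt6a, Krt6b and Krt16 both DKO points lie above the 7 others, while for Krt17 the DKO points (538.6 and 598.8) lie inside the range of the others (346.9 to 638.7).

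Krt6b, a type II chain, showed the largest change of the members. The WT libraries held 6.873 and 12.17 FPKM, the KO libraries 3.242, 3.109 and 2.869, the KH libraries 4.832 and 6.395, and the DKO libraries 710.2 and 1593. The DKO libraries did not overlap with the rest, and the lower of them was 58.3 times the highest other library. The KO mean was 3.074 ± 0.189 FPKM (SD, n = 3), the KH mean 5.613 ± 1.1 (SD, n = 2), the WT mean 9.524 ± 3.75 (SD, n = 2) and the DKO mean 1151 ± 624 (SD, n = 2). On the log2(FPKM + 1) scale the difference between DKO and WT was 6.71 (SE 0.38, limma adjusted p = 8.55e-05). Among all genes of the table ordered by average FPKM, Krt6b stood at place 6587 in WT and at place 126 in DKO.

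Krt6a, the type II gene next to it, reached 155.6 and 629.1 FPKM in DKO. Its WT libraries held 5.45 and 4.566 FPKM, its KO libraries 4.213, 3.444 and 4.372, and its KH libraries 6.818 and 3.193. Its lower DKO library was 22.8 times the highest other library, so the groups did not overlap, but the DKO libraries were further apart than for any other member. The mean was 5.008 ± 0.625 FPKM in WT (SD, n = 2) and 392.3 ± 335 in DKO (SD, n = 2), a difference of 5.71 on the log2(FPKM + 1) scale (SE 0.56, limma adjusted p = 0.00222). Without WT replicate 2 the difference was 5.61 and the adjusted p = 0.0509, so this call rested on that library. Krt6a moved from place 8561 to place 308 in the order of genes.

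Krt16, a type I chain and the usual partner of the Krt6 proteins, was already well expressed outside DKO. The WT values were 41.86 and 55.82 FPKM, the KO values 40.57, 53.33 and 57.33, the KH values 38.3 and 42.0, and the DKO values 353.5 and 696.8. The 7 libraries outside DKO lay within a narrow band and the DKO libraries above it, the lower at 6.17 times the highest of the 7. The mean went from 48.84 ± 9.87 FPKM in WT (SD, n = 2) to 525.1 ± 243 in DKO (SD, n = 2), a difference of 3.33 on the log2(FPKM + 1) scale (SE 0.33, limma adjusted p = 0.00222). Without the filter on low values the Krt16 difference was the same and its adjusted p = 0.0675, and that of Krt6a 0.0886, so both calls depended on the filter.

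Krt17, the second type I chain, was the member with the highest level in WT, at 449.1 and 379.0 FPKM. KO stood at 638.7, 540.0 and 352.1, KH at 577.8 and 346.9, and DKO at 538.6 and 598.8. The DKO libraries were above both WT libraries but below the highest KO library, and 1 of the KH libraries lay between them. The DKO mean was 568.7 ± 42.6 FPKM (SD, n = 2) against 414.1 ± 49.6 in WT (SD, n = 2). The difference was 0.46 on the log2(FPKM + 1) scale, with a 95% interval from -0.36 to 1.28 and a limma adjusted p = 0.583, so a doubling of Krt17 was within the interval and was not shown.

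Counted over the members, 3 of 4 were called higher in DKO against WT, where 0.479% of the 16897 tested genes were called higher. Without the filter on low values 1 of 4, Krt6b, was called in each of the 3 comparisons with DKO. With the filter, the same 3 genes were called against KO, with 0.521% of all tested genes called higher, and against KH they were called again, with 0.385%. Both DKO libraries were above all 7 others for 3 of the 4 members and for 5.33% of all tested genes. The sizes against KO and KH were near those against WT or larger. Krt6b differed from KO by 8.03 (SE 0.35) and from KH by 7.34 (SE 0.38) on the log2(FPKM + 1) scale, with limma adjusted p-values of 1.44e-05 and 6.23e-05. Krt6a differed by 5.98 (SE 0.52, limma adjusted p = 0.00087) and 5.78 (SE 0.56, limma adjusted p = 0.00238). For Krt16 the differences were 3.29 (SE 0.3, limma adjusted p = 0.0013) and 3.6 (SE 0.33, limma adjusted p = 0.00167). Krt17 differed by 0.2 from KO, with a 95% interval from -0.55 to 0.95, and by 0.34 from KH, with an interval from -0.48 to 1.16.

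**Figure D2:**
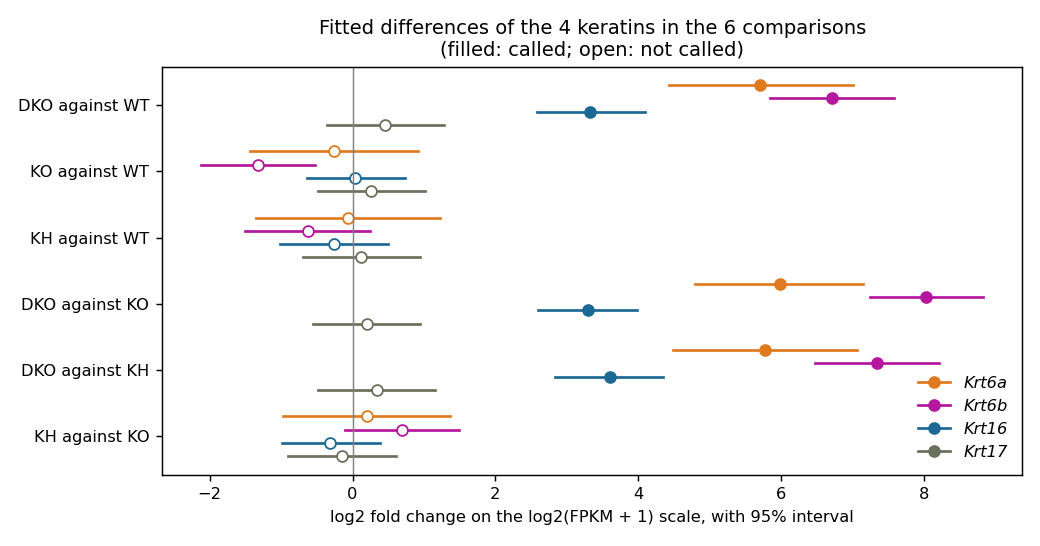
Fitted log2 fold changes of the 4 keratins in 6 comparisons between genotypes, on the log2(FPKM + 1) scale, with 95% intervals as lines, filled points for called differences and open points for the rest. In the 3 comparisons with DKO the points of Krt6a, Krt6b and Krt16 are filled and lie between 3.29 and 8.03, and every Krt17 interval includes 0.

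Loss of Esrp1 with Esrp2 still present left the members without a called change. None of the 4 was called in KO against WT or in KH against WT, where 0.0296% of all tested genes were called in each. At an unadjusted limma p under 0.05 stood 1 member in KO against WT, where 4.53% of all tested genes did, and 0 in KH against WT, where 3.72% did. In KH against KO, where limma called no gene at all (0% of those tested, with 185 genes at an unadjusted p under 0.05), the members' differences lay between -0.31 and 0.69 on the log2(FPKM + 1) scale. Krt6b came nearest to a change outside DKO. Its 3 KO libraries were all below both WT libraries and averaged 0.323 times WT, a difference of -1.32 (SE 0.35, 95% interval from -2.12 to -0.53). The unadjusted p of that difference was 0.00466 and the limma adjusted p was 0.853. The order of its genotype means was DKO, WT, KH and KO, and none of the last 3 differed from the next beyond the test's threshold. The Krt6a means were 5.008 FPKM in WT, 5.006 in KH and 4.01 in KO, with all 3 KO libraries below both WT libraries and inside the range of the KH libraries. For Krt16 they were 50.41 in KO, 48.84 in WT and 40.15 in KH, where the higher KH library (42.0) lay just above the lowest WT library (41.86). For Krt17 they were 510.3 in KO, 462.4 in KH and 414.1 in WT, with overlapping libraries. No difference between these genotypes passed the test for any of the 3 genes.

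The sexes of the embryos were not balanced between the genotypes, as shown by Xist, the RNA made from the inactive X chromosome of female cells. Xist was at 76.2 FPKM or more in the 3 KO libraries and in WT replicate 2 and at 0.178 or less in the other 5 libraries, so DKO and KO differed in Xist as well as in Esrp2, and the effect of Esrp2 cannot be told apart from it in that comparison. The 5 libraries with low Xist are WT replicate 1 and both KH and both DKO libraries. Among those 5, chosen after seeing the data, the differences between DKO and WT were 7.08 for Krt6b, 5.61 for Krt6a and 3.54 for Krt16. With 1 WT library left they were not called, at limma adjusted p-values of 0.0737, 0.486 and 0.303.

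Because FPKM is scaled per length, levels of the 4 genes can be set side by side within a library. In the 7 libraries outside DKO, Krt17 made up between 83.9% and 93.0% of the FPKM summed over the 4 members, and Krt6a and Krt6b together between 1.09% and 3.71%. In the 2 DKO libraries Krt17 made up 30.6% and 17.0%, and the Krt6 pair 49.3% and 63.2%. The order of levels changed with this, from Krt17, Krt16, Krt6b and Krt6a in WT to Krt6b, Krt17, Krt16 and Krt6a by mean in DKO. In DKO replicate 2 all 3 others were above Krt17.

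The ratio of type II to type I chains follows from these levels. Krt6a plus Krt6b over Krt16 plus Krt17 was between 0.011 and 0.0385 in the 7 other libraries and 0.971 and 1.71 in the DKO libraries. The ratio of Krt16 to Krt17, neighbours on chromosome 11, was between 0.0635 and 0.163 outside DKO and 0.656 and 1.16 in DKO. Of the 6 possible ratios between members, 5 did not overlap between the DKO libraries and the 7 others, and the exception was Krt6a over Krt6b. A two-sided exact permutation test of 2 libraries against 7 cannot go below 0.0556, so these ratios are a description. With Krt6b between 0.656 and 2.67 times Krt6a outside DKO, the DKO libraries stood at 4.56 and 2.53 times.

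**Figure D3:**
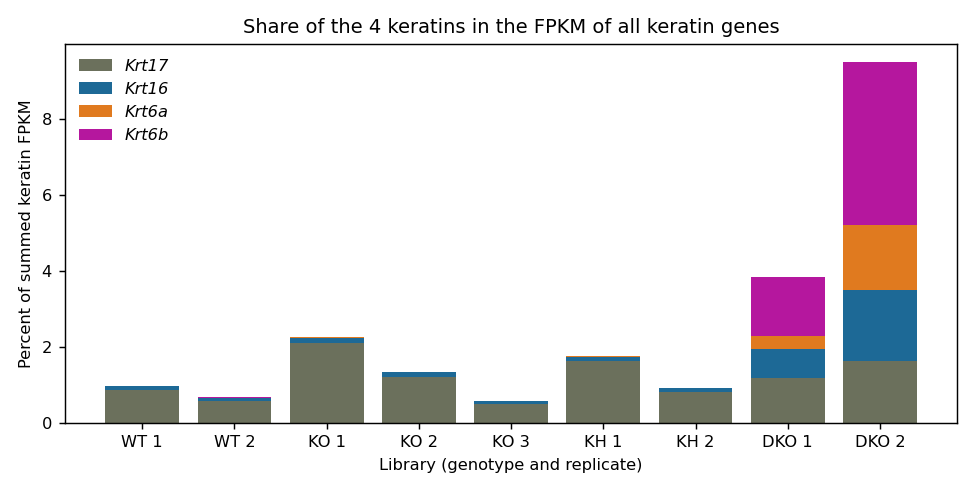
Percent of the summed FPKM of all 50 keratin genes held by Krt17, Krt16, Krt6a and Krt6b in each of the 9 libraries, as stacked bars from 0. The 4 genes hold between 0.58% and 2.25% in the 7 libraries outside DKO, most of it Krt17, and 3.84% and 9.5% in the 2 DKO libraries, where Krt6b is the thickest band.

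Set against the basal keratins of the same library, the members kept the same split. Krt6b was between 0.0832 and 0.52 per 100 Krt5 FPKM outside DKO and 27.5 and 48.5 in DKO, and Krt6a between 0.108 and 0.236 against 6.02 and 19.2. Krt16 was between 1.1 and 3.24 per 100 Krt14 FPKM outside DKO and 11.7 and 19.4 in DKO. Krt17 was at 24.9 and 22.0 per 100 Krt14 FPKM in the 2 WT libraries and between 16.5 and 19.2 in all 7 libraries without Esrp1, those of DKO (17.8 and 16.7) included. Relative to Krt14, Krt17 was thus lower, not higher, in DKO than in WT, a ratio that was described and not tested.

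Of the keratins of resting interfollicular epidermis, 0 of 7 were called in DKO against WT, and their median log2 difference was -0.54 against 0.02 over all tested genes. At an unadjusted limma p under 0.05 were 3 of the 7, and 13.8% of all tested genes. Krt5 and Krt14, the basal pair, differed by 0.33 (SE 0.48) and 0.91 (SE 0.46). Krt14 was at 1805 and 1722 FPKM in WT and 3032 and 3596 in DKO, with KO and KH libraries between 1810.0 and 3692. Krt15, a further basal type I keratin, was at 990.3 and 1109 FPKM in WT and at 655.2 and 287.7 in DKO, a difference of -1.27 (limma adjusted p = 0.208). Krt1 and Krt10, the suprabasal pair, differed by -0.54 and -1.02, with Krt10 at 24844 and 32066 FPKM in WT and 16910.0 and 11518 in DKO. KO libraries covered both of those ranges, from 10815 to 35425 FPKM. The type II keratins Krt2, known from upper epidermal layers, and Krt77 each had DKO values outside the range of the 7 others. Krt2 was at 13.91 and 3.76 FPKM in DKO and 0.7362 and 0.4981 in WT (limma adjusted p = 0.0785). Krt77 was at 22.62 and 5.362 in DKO and 59.89 and 81.8 in WT (limma adjusted p = 0.195).

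Across all keratins, 41 of 50 passed the filter on low values, and 6 were called higher and 0 lower in DKO against WT, beside 0.479% of all tested genes called higher. Leaving out the members, 3 of 37 were called. These 3 were Krt12, Krt84 and Krt75, of which Krt12 and Krt84 were named after their values were seen. Krt12, known from the cornea, went from 24.53 and 15.75 FPKM in WT to 994.3 and 1040.0 in DKO. Its KO libraries (28.77 to 70.62 FPKM) and KH libraries (44.71 and 112.6) were all above both WT libraries, without a call. Krt84, a hair and nail keratin, differed by 1.93 (SE 0.17) on the log2(FPKM + 1) scale. Krt75, the hair follicle keratin that lies next to Krt6b, was at 0.01037 and 0.005947 FPKM in WT and 0.4808 and 0.4175 in DKO, below 1 FPKM in all 9 libraries. It passed the filter on low values through its DKO average alone. The genes that flank the members were not called on the other sides. Krt5 lies beyond Krt6a, Krt14 before Krt16, and Krt42 beyond Krt17, with a difference of 0.09 (SE 0.1). Krt75, Krt6b and Krt6a are consecutive among the keratins of chromosome 15, and all were called. Krt82, between Krt84 and Krt75, was not called (0.08, SE 0.1). On chromosome 11 the called Krt12 and Krt16 are not next to each other.

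**Figure D4:**
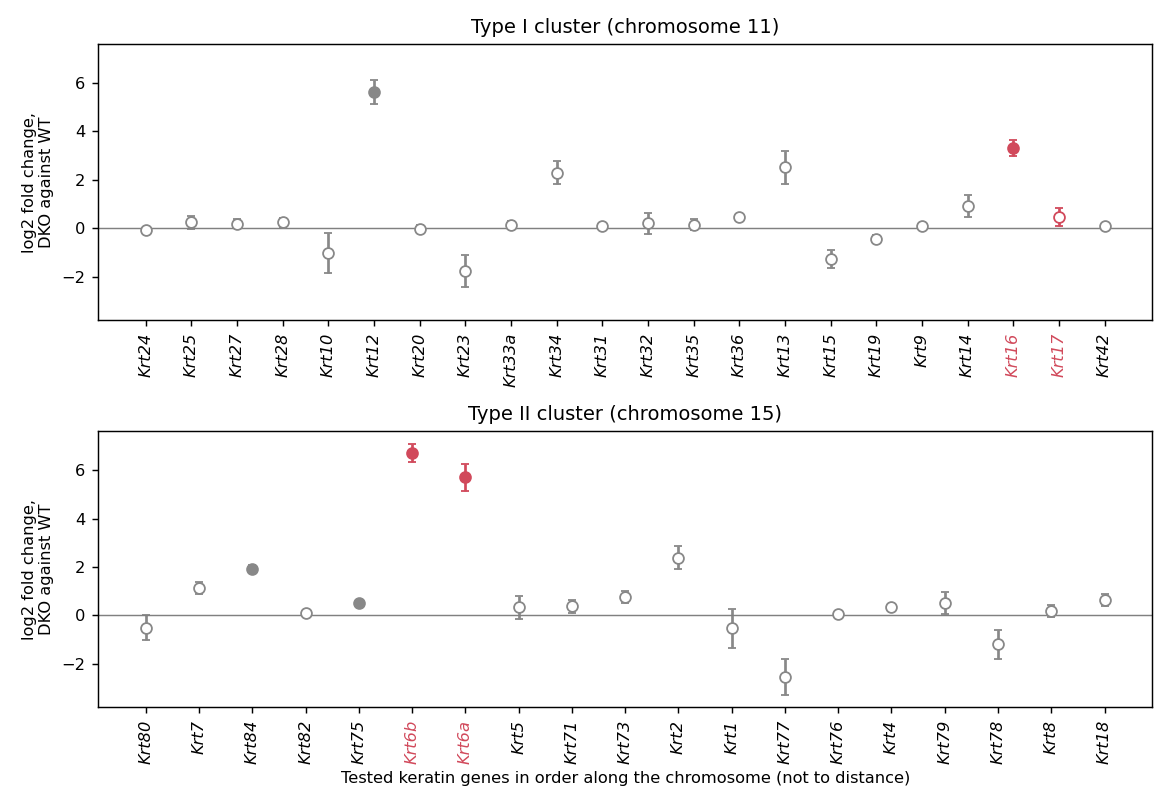
Log2 fold change (log2(FPKM + 1) scale) of DKO against WT for the 41 tested keratin genes, in their order along chromosomes 11 and 15, with bars for the SE, filled points for called genes and the members in red. Krt6b and Krt6a at 6.71 and 5.71, Krt12 at 5.62 and Krt16 at 3.33 stand highest, and Krt17, next to Krt16, lies at 0.46 with Krt14 and Krt42 on the sides of the pair.

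The keratins of periderm and simple epithelia hold type I and type II chains seen early in skin development or in single-layered epithelia. None of the 7 was called in DKO against WT, although 6 had an unadjusted limma p under 0.05 (13.8% of all tested genes did) and 3 were called when limma weighted the libraries by their quality, a setting that called 556 genes in place of 123. Of the 7, 5 had positive differences. Krt4, counted among the 6 and among the 5, passed the filter on low values through its DKO average alone. Its averages were 0.0469 FPKM in WT, 0.036 in KO, 0.062 in KH and 0.317 in DKO. Krt23, the most abundant of them, was at 368.8 and 335.3 FPKM in WT and 172.1 and 61.6 in DKO (difference -1.76, SE 0.67), and Krt19 differed by -0.44 (SE 0.16). Krt7 alone was called against KO, where 0.521% of all tested genes were called higher. Krt7 was at 5.16 and 3.99 FPKM in WT, between 3.05 and 3.6 in KO, at 3.53 and 4.28 in KH, and at 13.0 and 9.53 in DKO. It differed from KO by 1.5 (SE 0.21, limma adjusted p = 0.0193) and from WT by 1.13 (SE 0.23, limma adjusted p = 0.0897). Among the 10 measured linker and keratin-binding proteins, which tie filaments to desmosomes and hemidesmosomes or regulate them, 0 were called in any comparison with DKO, with 2 at an unadjusted limma p under 0.05 against WT, 0 against KO and 1 against KH. The shares of all tested genes at that p were 13.8%, 6.8% and 5.71%.

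Genes known to act upstream of the wound keratins, such as EGF receptor ligands, interleukin-1, and AP-1 and other transcription factors, were taken as a list of 26, of which 25 were tested. In DKO against WT 2 were called, both higher, where 0.479% of all tested genes were called higher. The median log2 difference was 0.31 over the list and 0.02 over all tested genes. Il1b, the cytokine interleukin-1 beta, was at 0.495 and 0.203 FPKM in WT, between 0.474 and 1.15 in KO and KH, and at 6.99 and 4.73 in DKO. Its difference from WT was 2.33 (SE 0.23, limma adjusted p = 0.00224). Fosl1, the AP-1 subunit Fra-1, went from 0.376 and 0.566 FPKM in WT to 2.6 and 2.99 in DKO, with no KO or KH library above 0.57 (difference 1.37, SE 0.19, limma adjusted p = 0.0169). Areg, the EGF receptor ligand amphiregulin, was called against KO and KH but not against WT, at 2.39 and 2.11 FPKM in DKO, 0.967 and 1.05 in WT and between 0.618 and 0.934 in KO and KH. The calls in this list were the least firm. The count against WT fell to 0 without WT replicate 2 and to 1 without the other WT library or either DKO library. It was also 0 without the filter on low values and among the libraries with low Xist, 1 with a pseudocount of 0.1, and 4 with library weights.

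Other genes that activated keratinocytes are known to turn on formed a list of 27, of which 25 were tested. In DKO against WT 8 were called, all higher, beside 0.479% of all tested genes, and the median log2 difference was 0.48 against 0.02 over all tested genes. Of the 25 tested, 19 had positive differences, among them Lcn2, Ptgs2 and Mmp3, which passed the filter on low values through DKO alone. Tnc was lower in both DKO libraries (2.13 and 2.36 FPKM) than in the 7 others. Of the 27 genes, 9 were below 1 FPKM in every library. Slpi, a secreted inhibitor of leukocyte proteases, was between 0.243 and 1.12 FPKM in the 7 other libraries and at 84.0 and 66.4 in DKO. Ccl20, a chemokine for immune cells, was at 0.752 FPKM or less outside DKO and at 48.1 and 38.8 in DKO. Their DKO libraries were nearer to each other than for the Krt6 genes, with DKO replicate 1 the higher.

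S100a8 and S100a9, which form the antimicrobial protein calprotectin, reached 15.3 and 15.2 FPKM and 40.5 and 36.9 FPKM in DKO, with no other library above 1.3 for S100a8 or 8.38 for S100a9. Il33, an alarm cytokine of epithelia, went from 0.57 and 0.569 FPKM in WT to 10.2 and 14.2 in DKO. Tslp, a cytokine released by stressed keratinocytes, went from 0.133 and 0.309 to 1.42 and 3.02. Sprr1b, a cornified envelope precursor, followed the members' order of the DKO libraries, at 443.9 and 912.3 FPKM against a WT mean of 73.3 ± 23.7 (SD, n = 2). Lcn2, the antimicrobial protein lipocalin-2, was called on low values, at 1.12 and 0.873 FPKM in DKO and 0.0861 or less elsewhere. Its average passed the 0.1 FPKM filter in DKO alone, so it entered the test through the group where it was high. Of these 8 genes, 7 were also called against KO (0.521% of all tested genes called higher) and 7 against KH (0.385%), Sprr1b being the exception in both. None of the 25 tested was called in KO or KH against WT, where 0.0296% of all tested genes were called in each. The count of 8 against WT fell to 6 with a filter at 1 FPKM, to 5 without WT replicate 2, to 3 without the filter on low values and to 1 among the libraries with low Xist.

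Krt6a, Krt6b and Krt16 shared their pattern over libraries, with Pearson correlations of log2(FPKM + 1) between 0.97 and 0.98 over the 9 libraries. These values describe the gap between DKO and the rest: over the 7 libraries outside DKO the correlations were 0.17 for Krt6a with Krt6b, -0.38 for Krt6a with Krt16 and 0.01 for Krt6b with Krt16. Krt17 correlated with Krt14 at 0.91 over the 9 libraries and 0.89 over the 7, with Krt5 at 0.86 over both, and with Krt10 at -0.81 and -0.77. All points share genotype and library composition, so no p is given.

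By the same measure, over 12197 genes with a mean of at least 1 FPKM, Sprr2f, a small proline-rich cornified envelope gene, had the pattern most like Krt6a (0.991), Krt6b (0.986) and Krt16 (0.991). Next for Krt6a were Sprr2i (0.989), Snora7a (0.985) and the members Krt16 and Krt6b. For Krt6b they were Snora7a, Sprr2i, Ccl20 (0.98) and Lce3b (0.979), and for Krt16 Sprr2i (0.99), Sprr2e (0.988), Snora7a and Gm9782 (0.984). The genes nearest to Krt17 were Plk4 (0.978), Fbl (0.977), Ahi1 (0.972), Snrnp40 (0.971) and Exosc2 (0.962), none of which appears for the other 3 members. Sprr2f, Sprr2i, Snora7a, Ccl20, Lce3b and Gm9782 were below 1 FPKM in all 7 libraries outside DKO and reached the required mean through DKO alone, so their likeness restates the gap between DKO and the rest.

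Markers of other cell types were measured beside these values, since in bulk epidermis fewer cells of a type and less RNA per cell cannot be told apart. Hair follicles express several of the members, and the summed FPKM of 12 follicle markers was 221.4 and 285.1 in DKO against 144.4 to 228.8 in the 7 others, with 1 of 12, Krt75, called in DKO against WT. All 12 had positive differences in that comparison, with a median of 0.52, and 2 had an unadjusted limma p under 0.05, which 13.8% of all tested genes had, with 0.479% called higher. Krt79 was the highest of the 12 in each library, at 150.6 and 132.3 FPKM in DKO and between 60.3 and 155.7 elsewhere. In skin sections the study counted fewer hair follicles in DKO than in controls, and they were at earlier stages. Neutrophils hold much S100a8 and S100a9, and the neutrophil genes Ly6g, Mpo and Elane were at 0 in all 9 libraries. The other 2 neutrophil markers summed to 0.795 and 0.463 FPKM in DKO and at most 0.536 elsewhere, and 1 of them, Cxcr2, was at 0.273 and 0.249 in DKO and at most 0.0897 elsewhere. The 7 immune cell markers summed to 35.1 and 14.2 FPKM in DKO and from 4.39 to 31.1 elsewhere, with both WT sums (10.8 and 4.39) below both DKO sums. Of the 6 tested, 5 had positive differences from WT (median 0.92) and 2 an unadjusted limma p under 0.05, and 0 were called. Melanocyte markers summed to 89.8 and 196.0 FPKM in DKO against 40.0 to 140.9 elsewhere, and red blood cell markers to 431.4 and 1520.0 against 15.4 to 623.8, with none of either list called. All 4 melanocyte markers had positive differences from WT (median 1.51) at an unadjusted limma p under 0.05 (13.8% of all tested genes), and all 5 red blood cell markers had positive ones (median 1.72), with 0 at that p. DKO replicate 2, the library with the higher Krt6a, Krt6b and Krt16, had the highest follicle, melanocyte and red blood cell sums of all 9, and its sum of 8 granular and cornified layer markers was 8884 FPKM, against 18170.0 in DKO replicate 1 and from 7379 to 21139 in the 7 others. In DKO against WT, 0 of these 8 and 0 of 6 spinous layer markers had positive differences (medians -0.43 and -0.78). At an unadjusted limma p under 0.05 were 1 of the 8 and 2 of the 6 (13.8% of all tested genes), and none was called. The part of these differences in the members' values was not tested.

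The markers of the labelled tissue were present, with Krt1, Krt10, Krt5 and Krt14 at 1676 FPKM or more in all 9 libraries and endothelial and adipocyte markers all below 1. Of the 5 skeletal muscle markers, 4 were below 1 FPKM in every library, and Mylpf was between 3.82 and 14.9. The 6 dermal fibroblast markers summed to between 44.2 and 149.6 FPKM, most of it Dcn (42.3 to 136.2), while the collagen genes Col1a1 and Col3a1 were below 1 in 8 libraries and at 2.65 and 5.39 in KO replicate 1. The collagen gene Col1a2 was at 4.69 FPKM in KO replicate 1 and between 0.908 and 2.24 in the other libraries. Summed FPKM per library was between 713318 and 1130713, and between 11851 and 12228 genes reached 1 FPKM. Read depth is not in the table. Esrp1, which is read from parts of the gene outside the deletion as well, was at 119.0 and 142.0 FPKM in WT and between 18.2 and 55.1 in the 7 libraries with the Esrp1 KO allele.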

How the data were processed

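Embryonic epidermis was lifted from trunk skin after cold trypsin treatment, and poly A RNA of single embryos was sequenced as stranded paired reads of 100 bases. The authors mapped the reads to mm10 with Ensembl 72 genes by TopHat (1.4.1), allowing 3 mismatches per read, and deposited FPKM values per gene and library from Cuffdiff (2.2.0). How Cuffdiff scaled the libraries is not given in the sources used here, and the table holds no read counts, so no counting interval is given. Read totals that the study states for whole genotypes were not used here. The gene models of the reference used for coding sequences and 100-base windows were GENCODE on GRCm38.

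Genes averaging above 0.1 FPKM in at least 1 genotype (16897) were fitted as log2(FPKM + 1), a pseudocount of 1, with 1 mean per genotype over all 9 libraries in limma (3.58.1, R 4.3.3, intensity trend), which left 5 residual degrees of freedom. Calls needed a Benjamini-Hochberg adjusted p below 0.05 and more than 2-fold in average FPKM, thresholds taken from the study's methods, which used another test. At most 1 non-zero value was identical between any 2 libraries, so none was taken as a repeat of another. The script was tested on simulated data.

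The members and the gene lists were chosen with earlier results of these data known. Named are the members, every called gene of the non-marker lists (at most 12 a list), all resting keratins, the 5 genes most correlated with each member and the nearest paralogs. Alternatives were no filter on low values, a filter at 1 FPKM, a pseudocount of 0.1, no trend, TPM, median ratio scaling, array weights, a replicate block, the compared genotypes alone and each library left out. A fit of the libraries with low Xist was added after seeing the data. Il36a, Il36g, Hbb-bt and Hbb-bs were matched by older symbols, and Eppk1 was not used here. Splicing was not analysed here.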

Additional observations from a re-analysis of the deposited data

How the results depend on the processing

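Of 432 values of the members' differences under 18 other settings, 408 kept their direction and their side of the threshold, 8 lost a call, 16 changed direction and 0 gained a call. Without a filter on low values, 1 member (Krt6b) was called in place of 3 against WT, against KO and against KH. Krt6a then had adjusted p-values of 0.0886, 0.0614 and 0.114 and Krt16 of 0.0675, 0.0532 and 0.0734, at the same fold changes. Among libraries with low Xist, a fit added after seeing the data, 0 members were called against WT and against KH, where limma called 11 and 2 genes in all (Krt6b adjusted p = 0.0737 and 0.0515), while the differences from KH stayed at 7.34 for Krt6b, 5.78 for Krt6a and 3.6 for Krt16. The Krt6a call against KH was also lost when only the 2 genotypes were fitted (adjusted p = 0.0662), at the same difference of 5.78. Leaving out 1 library at a time kept between 2 and 3 called members against WT, and 3 against KO and KH. The counts over all genes moved more, from 41 without the filter to 556 with array weights in DKO against WT (123 as reported), 400 for the 2 genotypes alone and 67 with the replicate block. Of the resting keratins, 1 was called in 4 of the 18 settings.

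The directions that changed were all of uncalled differences near 0, and the cause was not tested. Krt16 in KO against WT was -0.05 with the replicate block. Krt6a in KH against WT was 0.04 as TPM, which moved the median of all genes in DKO against KH by -0.115 and all others by less than 0.1. Krt17 in KH against KO was 0.01 as TPM, in DKO against KO -0.05 with the replicate block, and in KH against WT -0.0045 among libraries with low Xist. With 1 library left out, Krt16 in KO against WT ranged from -0.16 to 0.25, Krt6a in KH against WT from -0.51 to 0.38, Krt6a in KH against KO from -0.25 to 0.65, Krt17 in KH against WT from -0.25 to 0.49, Krt17 in KH against KO from -0.51 to 0.22, Krt17 in DKO against KO from -0.05 to 0.38 and Krt17 in DKO against KH from -0.02 to 0.71. The block used the replicate numbers of the sample titles, and libraries with the same title number did not pair, with correlations over 12 pairs from -0.57 to 0.47 and 4 above 0.1. The library names in the sample descriptions carry other numbers. By those, 6 pairs shared a number, at correlations from -0.23 to 0.54 with 4 above 0.1, and DKO and WT shared none. The replicate block changed no member's call, with 3 called against WT, KO and KH and 0 in the other comparisons. Where leaving out a library left a genotype with 1, the spread of the other genotypes was taken to hold for it.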
